A study of Drosophila melanogaster with 3 samples.

Results

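Binding of the transcription factor crp was examined at 8 genes that set the timing of S phase: E2f1, E2f2, Dp, Rbf, Rbf2, dap, dup and geminin. The genes were taken by name, and all 8 matched 1 of the 13968 protein-coding genes on the chromosome arms of dm6. crp, encoded by cropped, is the fly AP-4, a basic helix-loop-helix protein that binds as a dimer to the E-box CAGCTG. Chromatin came from whole embryos of both sexes collected at 0 to 24 h from 1 transgenic fly line that carries crp fused to GFP at its C terminus, and the fusion was precipitated through its GFP tag. The labels give 3 biological replicates of this single group, with no second condition, so the values below describe where binding was found and how far it recurred. They average over all stages and tissues of the embryo.

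E2F proteins bind DNA as a pair with Dp and switch genes for DNA synthesis on or off. E2f1 is the activating and E2f2 the repressing E2F of flies, and the retinoblastoma proteins Rbf and Rbf2 hold E2F in a repressing state until cyclin-dependent kinases release it. In licensing, dup, the fly Cdt1, helps to load the MCM helicase at origins, and geminin binds dup to prevent a repeat within the same cycle. dap, a Cdk inhibitor of the p21 and p27 family, holds cells in G1.

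The data were lists of peaks. Each replicate had a relaxed list that also holds background, with 30000, 28713 and 30000 peaks. A list of the pooled replicates had 28145, and 5460 peaks passed the authors' threshold of the irreproducible discovery rate (IDR), a measure of how well peak ranks repeat. Signal is the value of the authors' peak caller. Here it is given as relative signal, which sets each peak against the median signal of the 5460 strongest peaks in its own list, so that 1 is a typical strong peak. A promoter summit is the highest point of a peak within 500 bp of an annotated start site, and a summit was matched in another list when one lay within 100 bp. Read depth is unknown. IDR peaks are a selection of the pooled peaks of these replicates, so matches in the replicates are partly built in.

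Of the 8 genes 5 had an IDR promoter summit, namely dup, E2f1, Dp, Rbf2 and E2f2, while Rbf, dap and geminin had none. Over all protein-coding genes the share was 33.3%. In 4 genes, dup, E2f1, Dp and Rbf2, such a summit was matched among the strongest peaks of every replicate, beside 23.0% of all genes. No test of the 8 genes as a set was made. In the pooled relaxed list all 8 genes had a promoter summit, as did 57.2% of all genes, and 7 of the 8 had one in the relaxed list of every replicate, as did 41.8%.

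**Figure D1:**
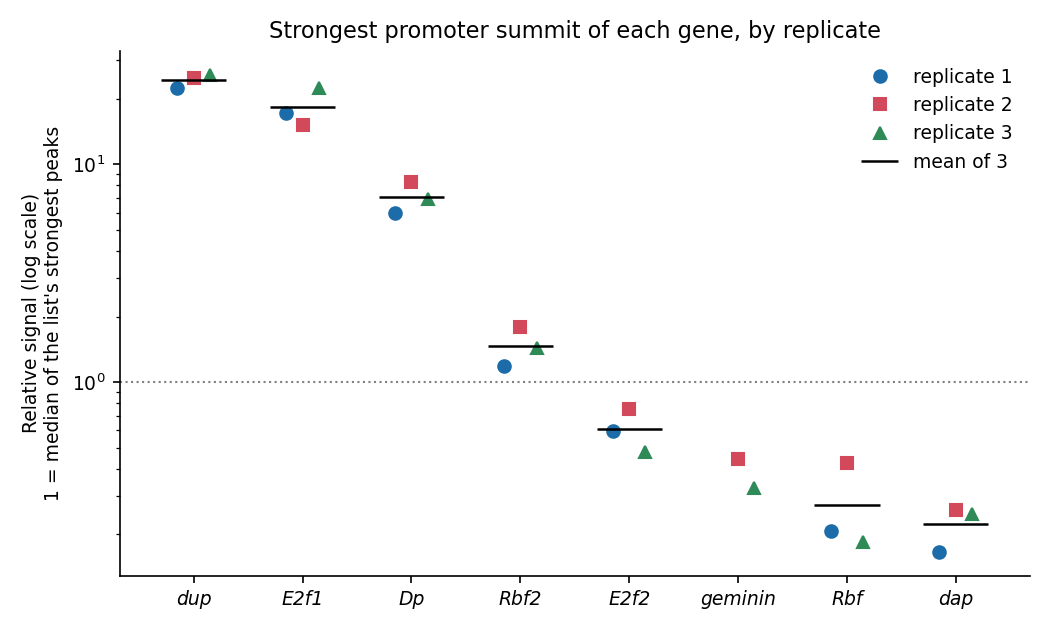
Relative signal (log axis) of the strongest promoter summit of each gene in each of the 3 replicates, with the mean as a bar where all 3 replicates hold a summit; the dotted line at 1 is the median of the strongest peaks. dup and E2f1 lie above 15 in every replicate, and Rbf, dap and geminin stay below 0.5.

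The order of the promoters was the same in all 3 replicates for the 5 bound genes. dup was above E2f1 by 6.15 ± 3.29 in relative signal (SD, n = 3), and E2f1 above Dp by 11.2 ± 4.29. Dp was above Rbf2 by 5.59 ± 0.842, and Rbf2 above E2f2 by 0.860 ± 0.240. The ranges of these neighbours did not overlap, though the lowest dup value, 22.5, was only just above the highest E2f1 value, 22.4. Each of the 4 differences was larger than its spread over replicates, but 3 replicates cannot bring a two-sided exact sign-flip test below p = 0.25, so none was run. E2f2 was above Rbf by 0.335 ± 0.0494, higher in 3 of 3 replicates. These values take the strongest summit anywhere in the promoter window. For E2f2 in replicate 1 it was 0.597, away from the IDR summit, whose match there was 0.314. Rbf and dap differed by 0.0489 ± 0.116, less than the spread, with Rbf higher in 2 of 3 replicates.

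dup, the licensing factor itself, carried the strongest peak of the group. Its relative signal was 22.5, 24.99 and 25.8 in replicates 1, 2 and 3, a mean of 24.4 ± 1.73 (SD, n = 3), and the 3 values lay close together. The peak ranked 23 in the IDR list and 22, 21 and 32 in the replicates. Among the 4657 genes with an IDR promoter summit, 99.3% had a weaker one than dup (median relative signal of bound genes 1.497). The promoter peak directly above it in the IDR list was that of U3-55K.

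The dup gene (2R 15376619 to 15380988, minus strand) has 2 annotated start sites, 374 bp apart, and the summit at 15380704 lay between them. It was 90 bp upstream of the start of dup-RB and 284 bp downstream of that of dup-RA, inside the 5' UTR of the longer transcript. The replicate summits were 100, 85 and 84 bp upstream of the dup-RB start. The same summit was 20 bp upstream of a start site of SRPK, a kinase of splicing factors that is transcribed the other way. Position does not tell these promoters apart. The centre of a CAGCTG lay 10.5 bp from the IDR summit and 20.5, 5.5 and 4.5 bp from the replicate summits. Between 250 bp upstream and 50 bp downstream of the dup-RB start there were 2 CAGCTG sites, 79 and 191 bp upstream, beside 17.9% of all 19630 start sites with at least 1. The same window held the E2F site TTTGGCGC 18 bp upstream of the start. It was the single match among the 17 start sites of the 8 genes to the 4 spellings searched on both strands (TTTGGCGC, TTTGCCGC, TTTCGCGC and TTTCCCGC). Over all start sites 6.75% had one. None of the 8 IDR promoter summits of these genes had an E2F spelling within 50 bp, as 2.77% of all IDR promoter summits had. A match of letters is a description and no evidence of binding by E2F.

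E2f1, the activating E2F, was bound at its most upstream promoter and, at a much lower signal, at an internal one. The gene (3R 21620304 to 21660871, minus strand) spans 40568 bp and has 5 annotated start sites. At the first, that of E2f1-RF, the relative signal was 17.2, 15.2 and 22.4 in replicates 1, 2 and 3 (18.3 ± 3.74, SD, n = 3). All 3 replicates placed the peak among their 130 strongest, and it ranked 79 in the IDR list. The summit at 21661036 was 165 bp upstream of the start, and the replicate summits 153, 171 and 146 bp upstream. The summit fell in the 314 bp between E2f1 and the 3' end of its neighbour Archease, and no start site of another protein-coding gene was within 500 bp of it. The peak itself, 21660309 to 21661501, ran into both genes.

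The next start, that of E2f1-RB, lies 439 bp further into the gene. It was 604 bp from the summit and had no promoter summit in the IDR list, though it lay inside the peak called at E2f1-RF. Far inside the gene, 27798 bp from the first start, E2f1-RA and E2f1-RE share a start site, and an IDR summit at 21633517 lay 444 bp upstream of it within an intron. There the strongest summit within 500 bp had a relative signal of 1.34, 0.906 and 1.18 (1.14 ± 0.218, SD, n = 3). The distal promoter was 12.8, 16.8 and 19.1 times as high, a ratio of 16.2 ± 3.17 (SD, n = 3). These strongest summits lay at different places, 295, 437 and 97 bp upstream of the start in replicates 1, 2 and 3. The IDR summit itself was matched within 100 bp in all 3 replicates, at 0.728, 0.906 and 0.974 (0.869 ± 0.127, SD, n = 3). In replicate 3 the strongest summit, the one 97 bp upstream of the shared start, was also within 500 bp of the E2f1-RD start. E2f1-RC had no summit within 500 bp in any list.

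**Figure D2:**
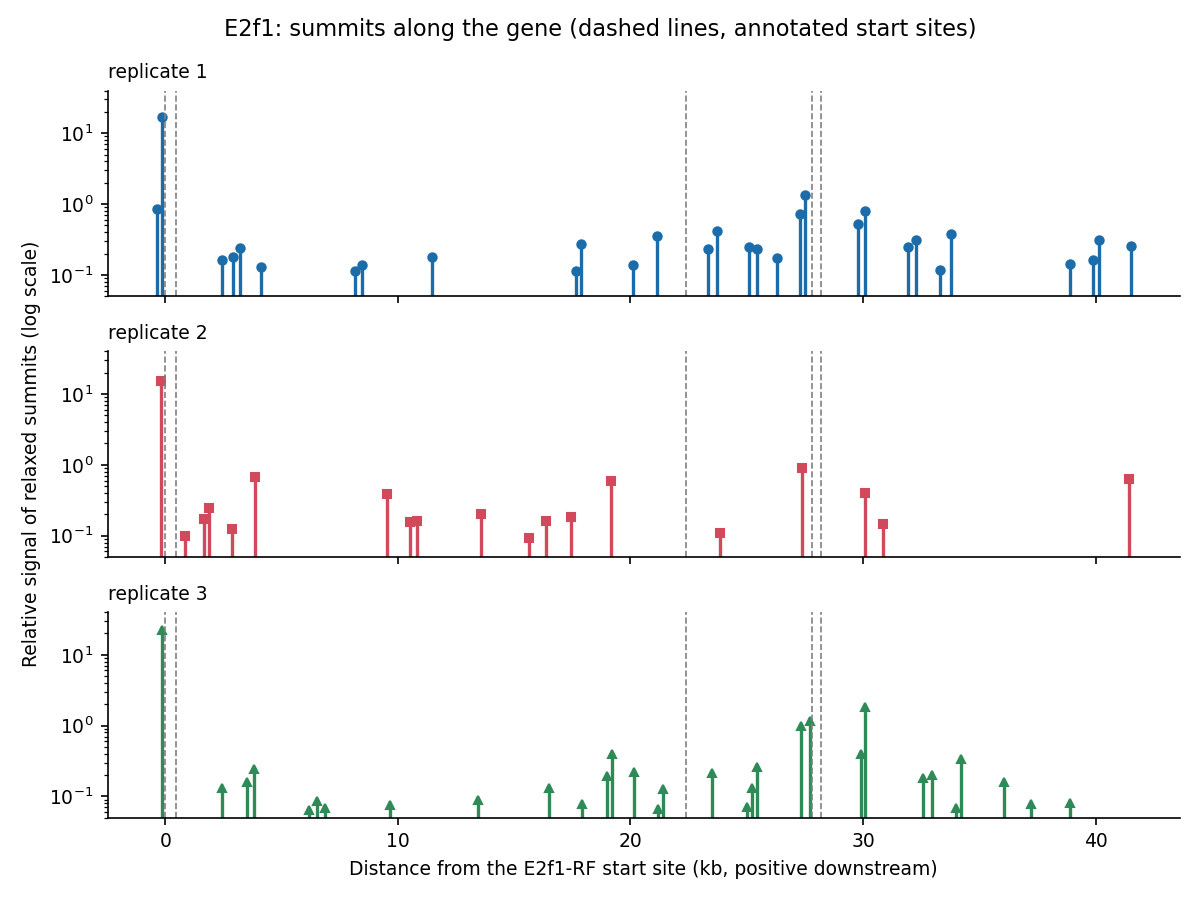
Relative signal (log axis) of all relaxed summits along E2f1 in replicates 1, 2 and 3, against the distance from the E2f1-RF start site in kb; dashed lines mark the annotated start sites. The peak at the first start, 15.2 to 22.4, stands above every other summit, and a lower group lies at the start shared by E2f1-RA and E2f1-RE.

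E2f1 was also the only one of the 8 genes with IDR summits inside the gene and away from its start sites, as 6.43% of all genes had. An intronic summit at 21630784, 1909 bp downstream of the E2f1-RD start, had a relative signal of 0.802, 0.403 and 1.82 in replicates 1, 2 and 3 (1.01 ± 0.730, SD, n = 3). The values spread widely, and replicate 3 was highest. A second one at 21641713 was matched in replicates 2 and 3, at 0.592 and 0.403, and not in replicate 1. The relaxed lists held many more: 25, 15 and 28 body summits in replicates 1, 2 and 3. Of the 26 in the pooled list, 1 was matched in all 3 replicates. The gene is the longest of the group, and the relaxed lists hold background, so these counts say little about binding.

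The sequences at the 3 E2f1 summits with CAGCTG show where the site sits at the distal promoter, the internal promoter and the intronic summit. They are given on the strand of the gene, 5′ to 3′, from 50 bp on either side of the IDR summit, from the RefSeq copy of dm6, with CAGCTG in capitals. The first is chr3R:21660986-21661086 upstream of E2f1-RF, the second chr3R:21633467-21633567 upstream of E2f1-RA and the third chr3R:21630734-21630834 in the intron; all are minus strand and none overlaps a UTR.
E2f1 distal promoter: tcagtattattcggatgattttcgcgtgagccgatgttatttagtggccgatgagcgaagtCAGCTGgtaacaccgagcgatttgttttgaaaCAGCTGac
E2f1 internal promoter: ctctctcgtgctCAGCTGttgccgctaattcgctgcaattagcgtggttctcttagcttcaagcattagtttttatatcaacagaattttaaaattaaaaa
E2f1 intron: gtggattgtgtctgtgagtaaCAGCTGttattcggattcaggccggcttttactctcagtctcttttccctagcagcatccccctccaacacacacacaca

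The distal promoter alone had 2 copies, 32 bp apart from first base to first base. The summits of replicates 1, 2 and 3 were 1.5, 19.5 and 5.5 bp from the centre of the nearer copy. At the internal promoter the summits matched to the IDR summit were 15.5, 42.5 and 16.5 bp from the copy shown, and in the intron 22.5, 14.5 and 35.5 bp. A further CAGCTG lay 76 bp upstream of the E2f1-RA start, outside the stretch shown.

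Dp, the partner that both E2F proteins need to bind DNA, was bound at 2 of its 3 promoters. The gene lies at 2R 13222433 to 13228202 on the plus strand. At Dp-RA the relative signal was 5.999, 8.27 and 6.91 in replicates 1, 2 and 3 (7.06 ± 1.14, SD, n = 3), with the IDR summit at 13222374, 59 bp upstream, at rank 613. The replicate summits were within 5 bp of it. This position is shared with Fsn, an F-box gene that starts on the opposite strand, whose nearer start was 36 bp from the summit. Dp-RC starts 1158 bp downstream, and there the strongest summit had a relative signal of 3.98, 1.62 and 5.59 (3.73 ± 2.00, SD, n = 3). Replicate 2 was low at Dp-RC and high at Dp-RA. Its strongest Dp-RC summit lay 196 bp upstream of the start, beside 64 and 32 bp in replicates 1 and 3. Dp-RA was the higher of the 2 promoters in 3 of 3 replicates, but by 3.33 ± 2.90, with ratios of 1.51, 5.12 and 1.24.

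Dp-RC had 2 IDR summits in 1 region, 212 bp apart. The stronger, at 13223546, was matched in all 3 replicates. The weaker, at 13223758, was matched in replicates 1 and 3 at 2.19 and 2.81 and not in replicate 2. A CAGCTG centre lay 26 bp upstream of the Dp-RA start and another 21 bp upstream of the Dp-RC start. Both were within 50 bp of a summit. The last start, that of Dp-RB, had no IDR summit, and its relaxed summits reached 0.212, 0.303 and 0.392.

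**Figure D3:**
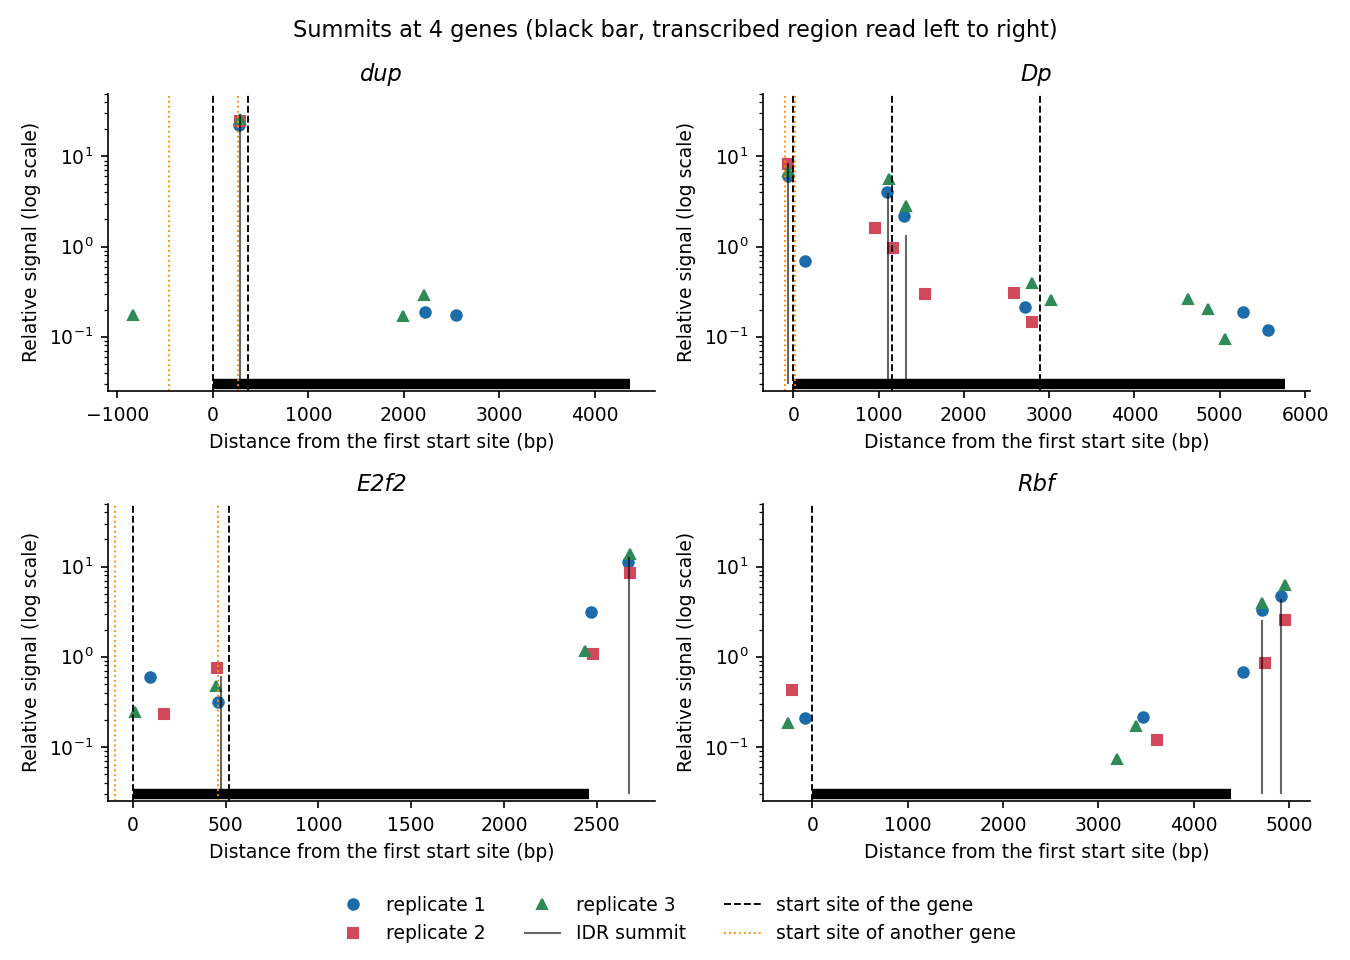
Relative signal (log axis) of relaxed summits in the 3 replicates at dup, Dp, E2f2 and Rbf, against the distance in bp from the first start site of each gene; black lines are IDR summits, the bar is the gene, dashed and dotted lines are start sites of the gene and of its neighbours. In dup and Dp the high summits are at start sites, and in E2f2 and Rbf the highest summits, 8.58 to 13.7 and 2.56 to 6.24, are past the 3' end.

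E2f2, the repressing E2F, had a weak promoter peak and a strong peak just past its 3' end. The gene lies at 2L 21154293 to 21156749 on the minus strand. Its IDR promoter summit at 21156276 was 44 bp upstream of the E2f2-RA start, inside the 5' UTR of E2f2-RB, and 12 bp upstream of a start of Mpp6, which runs the other way. It ranked 4197, and the matched relative signal was 0.314, 0.750 and 0.478 in replicates 1, 2 and 3 (0.514 ± 0.220, SD, n = 3). Replicate 1 had a stronger summit elsewhere, 93 bp downstream of the E2f2-RB start, at 0.597. With it, the strongest promoter summits averaged 0.608 ± 0.136 (SD, n = 3). Of the 4657 bound genes 14.4% had a weaker promoter peak.

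The peak past the 3' end of E2f2 had its summit at 21154074, 219 bp beyond the gene. Its relative signal was 11.3, 8.58 and 13.7 in replicates 1, 2 and 3 (11.2 ± 2.58, SD, n = 3), which is 18.9, 11.4 and 28.8 times the strongest promoter summit of E2f2 in the same replicate. The 3 summits lay within 5 bp of the IDR summit, and the 3 values did not overlap with those at the promoter. It ranked 320 among all IDR peaks and 6 among the 1485 IDR summits at no promoter. The nearest start sites of protein-coding genes were those of E2f2 itself, 2158 bp away, and of Mpp6, 2214 bp away. An IDR summit within 1000 bp past the 3' end was found at 3 of the 8 genes, E2f1, E2f2 and Rbf, as at 10.0% of all genes. At E2f2 and Rbf, 2 of the 8, it was at no promoter of a protein-coding gene, as in 0.931% of all genes.
The sequence under the E2f2 summit shows a single CAGCTG, in capitals, whose centre was 13.5 bp from the summit. It is chr2L:21154024-21154124 on the minus strand, from the RefSeq copy of dm6.
E2f2 downstream: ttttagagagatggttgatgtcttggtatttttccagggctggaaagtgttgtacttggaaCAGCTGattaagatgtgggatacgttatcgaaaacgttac

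Rbf, the main retinoblastoma protein of flies, had no IDR summit at its promoter but 2 past its 3' end. The gene lies at X 797090 to 801479 on the minus strand and has 1 start site. The strongest relaxed summits within 500 bp of it had relative signals of 0.207, 0.427 and 0.185 in replicates 1, 2 and 3, and none was among the strongest peaks of its list. They were 81, 218 and 259 bp upstream of the start and did not coincide. The 2 IDR summits at 796558 and 796763 lay 532 and 327 bp beyond the end of Rbf. Both were in the 3' UTR of CG16989, a gene that converges on Rbf with 28 bp between the 3' ends. The first had 4.68, 2.56 and 6.24 (4.49 ± 1.85, SD, n = 3) and the second 3.33, 0.853 and 3.97 (2.72 ± 1.65, SD, n = 3), with replicate 2 lowest at both. They ranked 2 and 3 in signal among the 29 IDR summits that fell in 3' UTRs. The first was 22.5, 5.99 and 33.7 times as high as the strongest promoter summit of Rbf. No CAGCTG was within 50 bp of either summit. The 2 summits lay in 1 peak, 796180 to 797132. The CAGCTG centre nearest to each was inside that peak, 107.5 bp from the first summit and 97.5 bp from the second.

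Rbf2, which restrains E2f2, had a moderate promoter peak without CAGCTG. The gene lies at 3R 15965446 to 15968138 on the plus strand. Its relative signal was 1.18, 1.78 and 1.44 in replicates 1, 2 and 3 (1.47 ± 0.301, SD, n = 3). In the IDR list its relative signal was 1.77, and the median of bound genes there was 1.497. The IDR summit at 15965410 was 36 bp upstream of Rbf2 and 59 bp upstream of CG32856, which starts on the opposite strand. The 94 bp between the 2 starts contained the DNA replication-related element TATCGATA, the site of the factor Dref, which covered the summit. This element was within 50 bp of 1 of the 8 IDR promoter summits and of 7.82% of all such summits. It occurred near 1 of the 17 start sites, from 250 bp upstream to 50 bp downstream, as at 7.99% of all start sites. The sequence is chr3R:15965352-15965445 on the plus strand, from the RefSeq copy of dm6, with TATCGATA in capitals.
Rbf2 and CG32856: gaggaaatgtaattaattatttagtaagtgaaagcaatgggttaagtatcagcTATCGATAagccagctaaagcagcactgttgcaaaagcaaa

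The inhibitors dap and geminin had no IDR summit at, in or within 1000 bp of the gene. dap (2R 9712321 to 9716256, plus strand) had strongest promoter summits of 0.166, 0.258 and 0.248 in the relaxed lists of replicates 1, 2 and 3 (0.224 ± 0.0503, SD, n = 3). They lay 285 bp downstream, 477 bp upstream and 360 bp upstream of the start, at 3 places. geminin (2R 6655463 to 6656594, minus strand) had none in replicate 1, where the weakest listed peak had a relative signal of 0.114, and 0.445 and 0.327 in replicates 2 and 3. These last 2 summits were 22 bp upstream and 25 bp downstream of the geminin-RB start, at nearly the same place. In replicate 2 the peak ranked 5480, just outside the 5460 strongest, and in the pooled list it ranked 6536. Low signal here says that binding was not called in whole embryos of mixed age, not that it is absent in every cell.

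Counted over start sites, 7 of the 17 annotated starts of the 8 genes were, among the starts of their own gene, the nearest to an IDR promoter summit, as were 25.3% of all start sites counted in the same way. At dup-RB, Dp-RA and E2f2-RA the start of a neighbouring gene was nearer still. Among the 4 bound genes with several starts, E2f1 and Dp had 2 bound starts each, as had 15.4% of such genes. CAGCTG occurred from 250 bp upstream to 50 bp downstream of 5 of the 17 starts, those of E2f1-RF, E2f1-RA with E2f1-RE, Dp-RA, Dp-RC and dup-RB. All 5 were bound, as were 54.1% of all starts with the site. At E2f1-RA with E2f1-RE the CAGCTG counted was 76 bp upstream of the start. The IDR summit there was 444 bp upstream, outside that window and near another CAGCTG. Of the 12 other starts 2 were bound by the nearest-start count, those of E2f2-RA and Rbf2, as were 19.0% of all starts without the site. The starts of dup-RA and E2f2-RB also had an IDR summit within 500 bp, 284 and 473 bp away, but another start of the gene was nearer. Counted over summits, 5 of the 8 IDR promoter summits had CAGCTG within 50 bp, as had 30.0% of all IDR promoter summits. The 3 without it were those of E2f2 and Rbf2 and the weaker one at Dp-RC. Of the 8 summits 4 were also within 500 bp of a start site of another gene, those at dup, Dp-RA, E2f2 and Rbf2, as were 39.3% of all. The summits at E2f1 and Dp-RC were not.

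Of 54 other genes of the pathway in 6 lists 36 (66.7%) had an IDR promoter summit, beside 33.3% of all protein-coding genes, with a median relative signal of 1.64 in the IDR list beside 1.497 for all bound genes. CAGCTG was within 50 bp of the strongest promoter summit in 9 of the 36, and in 3 of the 5 bound among the 8 genes. Of all IDR promoter summits, strongest of their gene or not, 30.0% had it, so the units differ. No difference between these was tested. The lists were chosen with results of these data known.

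In the list of origin recognition, MCM and helicase loading 10 of 14 genes had an IDR promoter summit, beside 33.3% of all protein-coding genes. By replicate mean the highest were Cdc6 with 12.6 ± 2.01 (SD, n = 3) and Orc3 with 11.4 ± 1.90. Both act with dup in loading the helicase, and the Orc3 peak was shared with CG34315 and FLASH. Origin firing had 7 of 7, with Cdc45 at 5.63 ± 0.989, at a peak shared with Rpp21, and the GINS subunit gene Psf3 at 4.03 ± 1.35. Of the ubiquitin ligase that destroys dup in S phase 1 of 4 genes was bound, l(2)dtl with 1.81 ± 0.291, at a peak shared with sigmar. Among 11 cyclins, kinases and regulators of G1 and S phase 8 were bound. The APC activator fzr with 6.62 ± 0.840 and the Cdc25 phosphatase gene stg with 4.69 ± 2.43 had the highest replicate means, while CycE had the highest value in the IDR list, 8.46 beside 7.62 for fzr.

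The MMB and dREAM complexes are those through which E2f2 and the Rb proteins repress. The list of their subunit genes also held aly and tomb, which belong to the related testis complex tMAC, and 5 of its 9 genes were bound, beside 33.3% of all protein-coding genes. mip120 had 5.35 ± 1.19 and mip130, whose peak was shared with Edem1, 5.27 ± 0.502 (SD, n = 3), and Myb, mip40, aly and tomb had no IDR promoter summit. Of 9 enzyme genes that E2F is known to control 5 were bound, beside the same 33.3%. The primase subunit gene Prim1 had 14.8 ± 2.28 and PolA2, a subunit of DNA polymerase alpha, 14.8 ± 1.83, both at peaks shared with a neighbour, CG7083 and CG31064. PCNA, RnrL, Ts and PolE1 had none. No promoter in the 6 lists reached the IDR relative signal of dup, 28.7, or E2f1, 20.9.

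**Figure D4:**
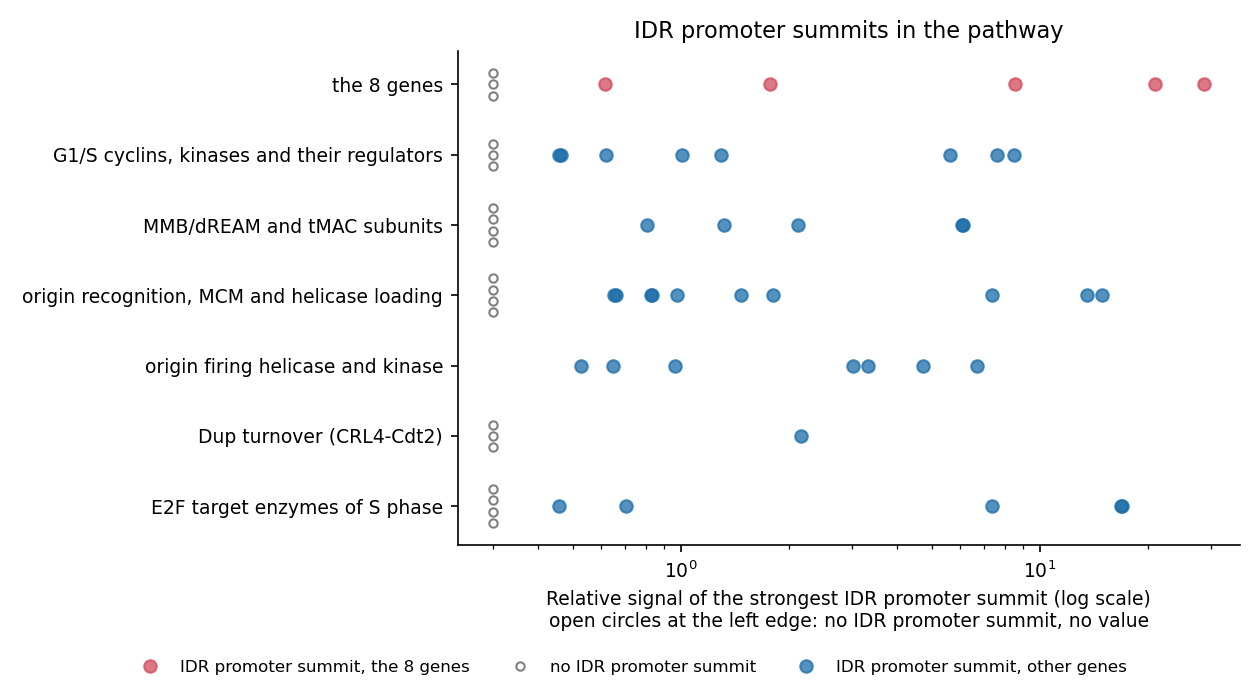
Relative signal (log axis) of the strongest IDR promoter summit of each of the 8 genes (red) and of the genes in 6 lists of the same pathway (blue); open circles at the left edge are genes with no IDR promoter summit. dup and E2f1 at 28.7 and 20.9 are the 2 points furthest to the right.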

How the data were processed

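Peaks of 3 biological replicates were analysed on dm6; the dm3 copies were not used. The authors deposited narrowPeak lists: a relaxed list for each replicate and for the pool, and 1 IDR list. Signal is the authors' value on their peak caller's own scale and is compared only within a list. The −log10 q value deposited by the authors was not used. Each summit is the deposited offset in bases added to the peak start, a whole number counted here from 1; no summit near these genes fell outside its peak. The sources used here do not give the aligner, the peak caller or the IDR threshold. A control library was not analysed here.

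Start sites came from Ensembl release 115, counted gene by gene (19630), and sequence from the RefSeq copy of dm6. A motif counted when whole within 50 bp of a summit. Calls of promoters and motifs were tested on simulated data. The genes, lists and alternatives were chosen with earlier results of these data known. All 8 genes are described; of each pathway list the 2 bound genes with the highest mean are named, with genes that share a peak and the neighbour above dup in rank; the neighbour below is not reported here. Of the listed names, dm and CDC45L were matched through RefSeq synonyms. No set test was made. Python 3.11.15, numpy 2.4.6 and matplotlib 3.10.9 were used.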

Additional observations from a re-analysis of the deposited data

How the results depend on the processing

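The 5 genes with an IDR promoter summit were 3 among the 1000 strongest IDR peaks and 8 in the whole pooled list. Windows of 250 and 1000 bp and the RefSeq gene models also gave 5, and summits shared by a pair of replicates, with the third left out, 4 to 5. Bound start sites rose from 7 to 12 in the pooled list. They were 9 when every start within 500 bp of an IDR summit counted, and 5 within 100 bp. Promoter summits with CAGCTG fell from 5 to 2 with the site within 25 bp and were 5 to 6 in the other alternatives. With each replicate left out in turn, the mean relative signal ranged as follows: dup 23.7 to 25.4, E2f1 16.2 to 19.8, Dp 6.45 to 7.59, Rbf2 1.31 to 1.61, E2f2 0.538 to 0.674, Rbf 0.196 to 0.317 and dap 0.207 to 0.253. Divided by the median of all peaks of each list, a change of scale, these were 158 for dup, 118 for E2f1, 46.0 for Dp, 9.62 for Rbf2, 3.90 for E2f2, 1.79 for Rbf and 1.48 for dap, in the same order. As percentiles of the strongest peaks dup had 99.6, E2f1 98.5, Dp 87.9, Rbf2 62.1 and E2f2 22.8; Rbf and dap were not among the strongest peaks and have none. No paired analysis of conditions was possible because there is 1 group, and differences between promoters were taken within each replicate. Depth is unknown, which limits what a missing peak shows.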

Other observations

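CycE, the cyclin that releases E2F from the Rb proteins, was singled out after its values were seen. Its IDR promoter summit at 2L 15746985, 375 bp upstream of the start shared by CycE-RC, CycE-RD and CycE-RF, ranked 621 in the IDR list. A match within 100 bp was found in replicate 2 alone, with a relative signal of 7.37 at rank 523. Replicates 1 and 3 had no summit there even in their relaxed lists, and their strongest promoter summits of CycE were 0.393 and 0.758. None of the 8 genes had a promoter peak that rested on 1 replicate in this way.

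The IDR summit 910 bp past the 3' end of E2f1, at 3R 21619394, was 73 bp upstream of a start site of InR, the insulin receptor gene next to it. It was matched in replicates 1 and 2 at 0.253 and 0.624 and not in replicate 3.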
